A study of Mus musculus with 2 samples.

Results

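The 37 transcripts of the mouse mitochondrial genome were examined in ribosome-protected fragments from postnatal brain. They were selected as every gene whose symbol starts with mt-, which gave 37 of the 45578 genes counted: 13 messenger RNAs, 22 transfer RNAs and 2 ribosomal RNAs. The material came from brains of control mice at postnatal day 5, heterozygous for the mouse Smn gene and hemizygous for the human SMN2 transgene (Smn+/-; SMN2tg/0) on a congenic FVB background. Both libraries share this genotype and age, and the labels call them biological replicates 1 and 2 of the single group. Brain lysate was treated with nuclease, active ribosomes were captured on RiboLace beads, and protected RNA of 25 to 35 nucleotides was sequenced. The labels name cytoplasmic RNA as the molecule and a lysate cleared by centrifugation. They do not say how much of the mitochondria was kept.

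The mitochondrial genome is a small circle of DNA that is transcribed from both strands into long precursors. The tRNAs that lie between the other genes are cut out of these precursors, which frees the mRNAs and rRNAs. Its mRNAs are translated inside the organelle by a separate ribosome, built from the mitochondrial rRNAs and from proteins that are imported from the cytosol. The proteins made there are hydrophobic core subunits of respiratory complexes I, III and IV and of the ATP synthase, complex V. Every other subunit of these complexes, and all of complex II, is encoded in the nucleus. Neurons draw most of their ATP from this chain.

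The libraries differed in depth and in their content of short RNAs. At 1 transcript per gene, replicate 1 held 343552 counts and replicate 2 held 120282, a ratio of 2.86. Counts were put on the CPM scale, which divides by the library size after TMM scaling; a single count then equals 2.71 CPM for replicate 1 and 8.93 for replicate 2. Replicate 2 was richer in small non-coding RNA encoded in the nucleus. In CPM, snoRNAs stood 2.51 times as high as in replicate 1, snRNAs 3.48 times, miRNA hairpins 6.84 times and miscellaneous RNAs 9.06 times. Counts of nuclear protein-coding genes differed by a factor of only 1.03 in CPM. TMM scaling holds this value near 1, because 4379 of the 5436 genes it used were of this class. Without TMM scaling, their share of gene counts in replicate 2 was 0.896 times that in replicate 1. Brain markers were present (Tubb3 with 1061 and 405 counts, Slc1a3 with 152 and 59), and of 4 markers of other organs Alb, Ckm and Umod (liver, muscle and kidney) had 0 counts in both libraries and Myh6 (heart) had 3 and 0. Intervals below are 95% intervals that cover counting error alone and leave out any spread between animals. PCR copies were not told apart by molecular identifiers, so the intervals may be too narrow even for counting error.

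All 13 mitochondrial mRNAs were detected in both libraries, and together they held 1903 counts in replicate 1 and 802 in replicate 2. They made up 0.554% of gene counts (Wilson interval 0.530 to 0.579) and 0.667% (0.622 to 0.714), intervals that did not overlap. Counts of the pseudogenes of similar length named below are not part of these totals. Their combined coding length of 11403 nucleotides carried 0.167 counts per nucleotide in replicate 1 (exact Poisson interval 0.159 to 0.175) and 0.0703 in replicate 2 (0.0655 to 0.0754). The table gives these mRNAs no untranslated regions, so coding and transcript length are the same. The 4281 nuclear protein-coding genes whose mean count reached 10 had median densities of 0.0232 and 0.00677 counts per coding nucleotide. No library of total or unbound RNA was analysed here, so the amount of an mRNA and the number of ribosomes on each copy cannot be told apart.

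mt-Co1, which encodes the catalytic subunit of cytochrome c oxidase, was the densest of the 13. It lies at MT:5328-6872 (RefSeq, GRCm38.p6) and collected 652 and 253 counts in replicates 1 and 2, giving 0.422 (0.390 to 0.456) and 0.164 (0.144 to 0.185) counts per coding nucleotide. Its intervals overlapped those of no other mitochondrial mRNA in either library. Pseudogenes of similar length, named below, held 128 and 52 counts beside mt-Co2 and 161 and 69 beside mt-Co3. These counts were not added, so whether mt-Co1 stands above these genes, and by how much, is uncertain. Among the nuclear coding genes above, each represented by 1 of its isoforms, 98.7% were less dense than mt-Co1 in replicate 1 and 98.8% in replicate 2. mt-Co1 stood at 1303 CPM per coding kilobase ± 225 (SD, n = 2).

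Cytochrome b and the other oxidase subunits followed in the order of mean density. mt-Cytb, the membrane subunit of complex III that oxidises ubiquinol, had 255 and 101 counts, or 0.223 and 0.0883 per nucleotide. mt-Co3, a core subunit of the oxidase, had 168 and 68 counts, or 0.214 and 0.0867 per nucleotide. mt-Co2, which carries the copper site that takes electrons from cytochrome c, had 143 and 49 counts, or 0.209 and 0.0716 per nucleotide. The intervals of these 3 genes overlapped in both libraries, so their order is not resolved at this depth. They did not stand apart from the complex I mRNAs either: mt-Nd6 lay above mt-Co2 in replicate 2, and the interval of mt-Nd4l overlapped that of mt-Co2 in replicate 1.

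The 7 complex I mRNAs, which encode membrane subunits of NADH dehydrogenase, ranged more widely. mt-Nd4l had 47 and 16 counts (0.158 and 0.0539 per nucleotide), and mt-Nd6 had 73 and 43 (0.141 and 0.0829). mt-Nd5, the longest reading frame of the genome at 1824 nucleotides, had 225 and 122 counts (0.123 and 0.0669 per nucleotide). These 3 genes made up the upper part of the complex I range in both libraries. mt-Nd4 had 121 and 49 counts (0.0878 and 0.0356 per nucleotide), mt-Nd2 had 90 and 35 (0.0867 and 0.0337), and mt-Nd1 had 70 and 24 (0.0731 and 0.0251). mt-Nd3 was the lowest in replicate 1, with 11 counts over 348 nucleotides (0.0316, interval 0.0158 to 0.0566), and next to the lowest in replicate 2, with 10 counts (0.0287, interval 0.0138 to 0.0528). In replicate 2 the intervals of mt-Nd1 and mt-Nd3 overlapped.

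The ATP synthase mRNAs lay in the lower part of the order in the counts as deposited. Among the 13 mRNAs, mt-Atp8 and mt-Atp6 held places 11 and 12 in replicate 1 and places 8 and 10 in replicate 2. mt-Atp6, which encodes the subunit that forms the proton path beside the rotor, had 36 and 23 counts, giving 0.0529 (0.0370 to 0.0732) and 0.0338 (0.0214 to 0.0507) per nucleotide. mt-Atp8, a short subunit of the stator, had 12 and 9 counts over 204 nucleotides, or 0.0588 (0.0304 to 0.103) and 0.0441 (0.0202 to 0.0837). These 2 reading frames sit on one mRNA and share 43 nucleotides, and their densities could not be told apart in either library. mt-Nd4l and mt-Nd4 also share an mRNA, with an overlap of 7 nucleotides. There the density was 1.80 times as high over mt-Nd4l as over mt-Nd4 in replicate 1, with intervals that did not overlap, and 1.52 times as high in replicate 2, with intervals that did. Pseudogenes of similar length, named below, held 34 and 21 counts beside mt-Atp6 and 51 and 14 beside mt-Nd4l. These were not added, and none was picked out for mt-Atp8 or mt-Nd4, so both comparisons are uncertain. The place of the ATP synthase mRNAs in the order is uncertain too.

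**Figure D1:**
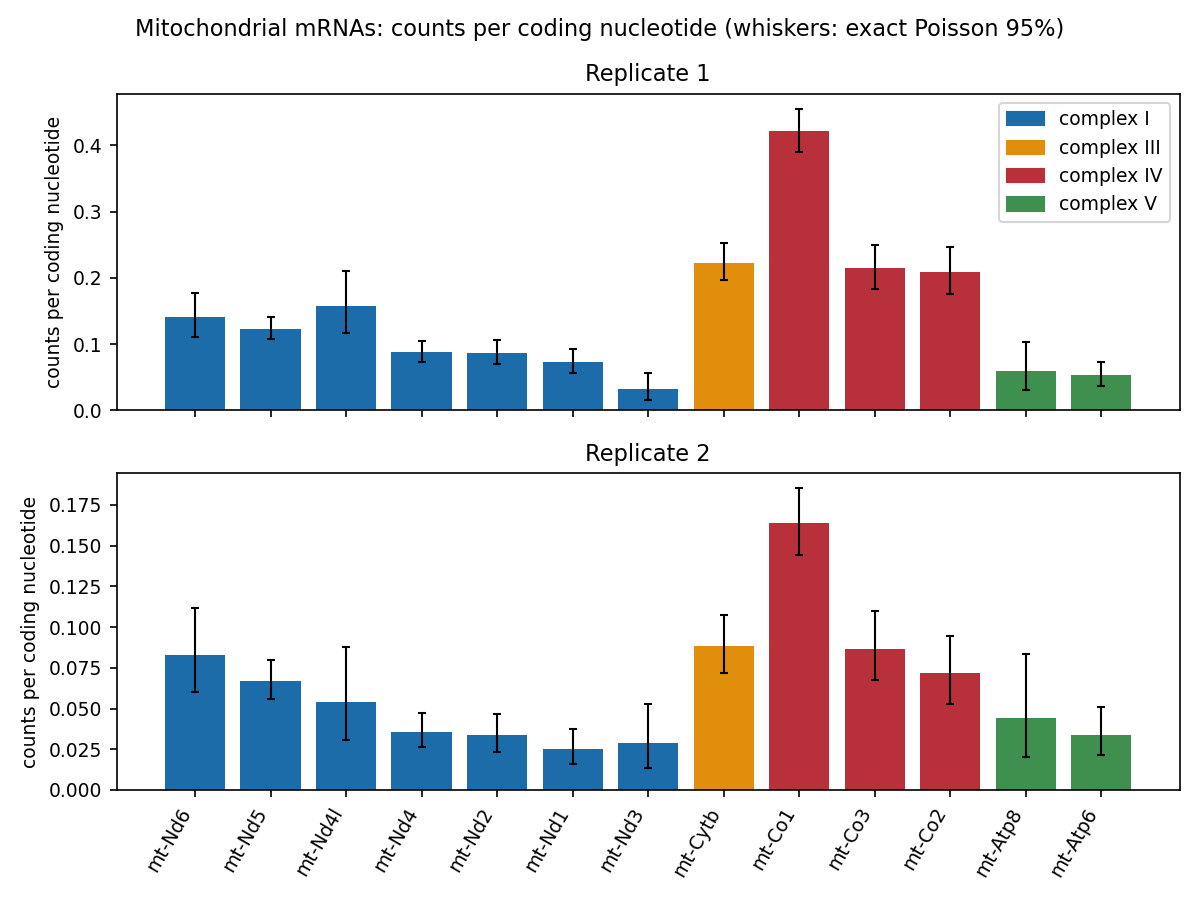
Counts per coding nucleotide of the 13 mitochondrial mRNAs in replicate 1 (top) and replicate 2 (bottom), grouped by complex, with exact Poisson 95% intervals as whiskers. mt-Co1 is the highest bar in both panels, at 0.422 and 0.164, and the vertical scales differ because replicate 1 was sequenced 2.86 times as deep.

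The order of the 13 was similar in the 2 libraries. Counts per nucleotide had a Spearman rho of 0.90 and, on a log scale, a Pearson r of 0.90 across the 13 genes, as a description over genes that share their library. mt-Co1, mt-Cytb and mt-Co3 led both orders, followed by mt-Co2 in replicate 1 and by mt-Nd6 in replicate 2. Of the 12 neighbouring pairs in the order of mean density, 9 had overlapping intervals in both libraries. On the CPM scale per coding kilobase, the mean over replicates went from 171 ± 121 for mt-Nd3 through 211 ± 18.2 for mt-Nd1, 278 ± 56.3 for mt-Nd4, 466 ± 186 for mt-Nd5 and 561 ± 254 for mt-Nd6 to 603 ± 51.7 for mt-Co2 and 678 ± 137 for mt-Co3 (each SD, n = 2). The gap from mt-Co1 at 1303 ± 225 to mt-Cytb at 696 ± 130 was larger than either SD, while those between the other neighbours in this order were smaller than the larger SD of the pair, except between mt-Nd4 and mt-Nd4l. Each gene was also taken as a share of the mitochondrial mRNA counts. mt-Co1 held 34.3% of them in replicate 1 (32.2 to 36.4) and 31.5% in replicate 2 (28.4 to 34.8). mt-Nd5 held 11.8% (10.4 to 13.4) and 15.2% (12.9 to 17.9). The intervals overlapped between the libraries for 13 of the 13 genes. These shares leave out the pseudogenes of similar length named below, so their size is uncertain.

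Summed by complex, complex IV had the highest density and complex V the lowest in the counts as deposited. In these counts the place of complex IV above complex III rests on mt-Co1. mt-Co2 and mt-Co3 both had a lower density than mt-Cytb in each library. The median gene of complex IV stood at 678 CPM per coding kilobase against 696 for mt-Cytb. Pseudogenes of similar length, named below, held 128 and 52 counts beside mt-Co2 and 161 and 69 beside mt-Co3. These counts were not added, and no such pseudogene was picked out for mt-Cytb, so this reliance on mt-Co1 is uncertain. The 3 oxidase mRNAs carried 963 and 370 counts, or 0.320 (0.300 to 0.340) and 0.123 (0.111 to 0.136) per nucleotide. The single complex III mRNA followed at 0.223 (0.196 to 0.252) and 0.0883 (0.0719 to 0.107). The complex I mRNAs carried 637 and 299 counts, or 0.1001 (0.0925 to 0.108) and 0.0470 (0.0418 to 0.0526) per nucleotide. The complex V mRNAs carried 48 and 32 counts, or 0.0542 (0.0400 to 0.0719) and 0.0362 (0.0247 to 0.0510).

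Complex IV was 3.19 times as dense as complex I in replicate 1 and 2.61 times in replicate 2. Against complex V the factor was 5.89 and 3.40. Intervals of complexes IV, III and I were separate from one another in both libraries. Those of complexes I and V were separate in replicate 1 and overlapped in replicate 2. Complex V includes mt-Atp6 (36 and 23 counts), beside which a pseudogene of similar length held 34 and 21 counts. Pseudogenes were also picked out for mt-Nd4l and mt-Nd3 of complex I. None of these counts was added, so the place of complex V below complex I and its factor against complex IV are uncertain. On the CPM scale per coding kilobase, complex IV stood at 981 ± 163, complex III at 696 ± 130, complex I at 346 ± 105 and complex V at 235 ± 124 (each SD, n = 2).

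The partners encoded in the nucleus gave a different order of complexes. A list of 78 nuclear-encoded subunits and associated proteins was used, of which 76 had a coding length for the transcript that represents the gene. Pooled over each complex, the nuclear subunits of complex IV had 827 CPM per coding kilobase in replicate 1 and 885 in replicate 2, close to the 866 and 1097 of the mitochondrial ones. For complex V the nuclear values were 517 and 503, above the mitochondrial 147 and 323. For complex I they were 182 and 189, below the mitochondrial 271 and 420. For complex III they were 268 and 248, below the 604 and 788 of mt-Cytb. The mitochondrial density was thus 1.05 and 1.24 times the nuclear one in complex IV, 0.284 and 0.642 times in complex V, 1.49 and 2.22 times in complex I, and 2.26 and 3.18 times in complex III. No test was made of these differences, and nuclear members that share fragments with processed pseudogenes are uncertain. The mitochondrial values of complexes I, IV and V leave out the pseudogenes named below. Each nuclear gene was represented by 1 of its isoforms, while each mitochondrial gene has 1 transcript. How fragments shared by isoforms were counted is not known here. If they were divided among isoforms, the nuclear densities are too low and these ratios too high.

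Single nuclear genes spanned the mitochondrial values. Cox8a, a small structural subunit of the oxidase, was the highest of complex IV at 1550 CPM per coding kilobase ± 93.2. Its mean was above the 1303 ± 225 of mt-Co1, but it rested on 38 counts in replicate 2 and this order was not tested. Uqcrq, a small subunit of complex III, was the highest there at 716 ± 49.2, beside 696 ± 130 for mt-Cytb. Atp5g3, which encodes the rotor ring subunit, led complex V at 1097 ± 256, and Ndufa3, an accessory subunit, led complex I at 660 ± 147 (each SD, n = 2). Sdhc, a membrane anchor, was the highest of complex II, which has no mitochondrial gene, at 271 ± 60.7.

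**Figure D2:**
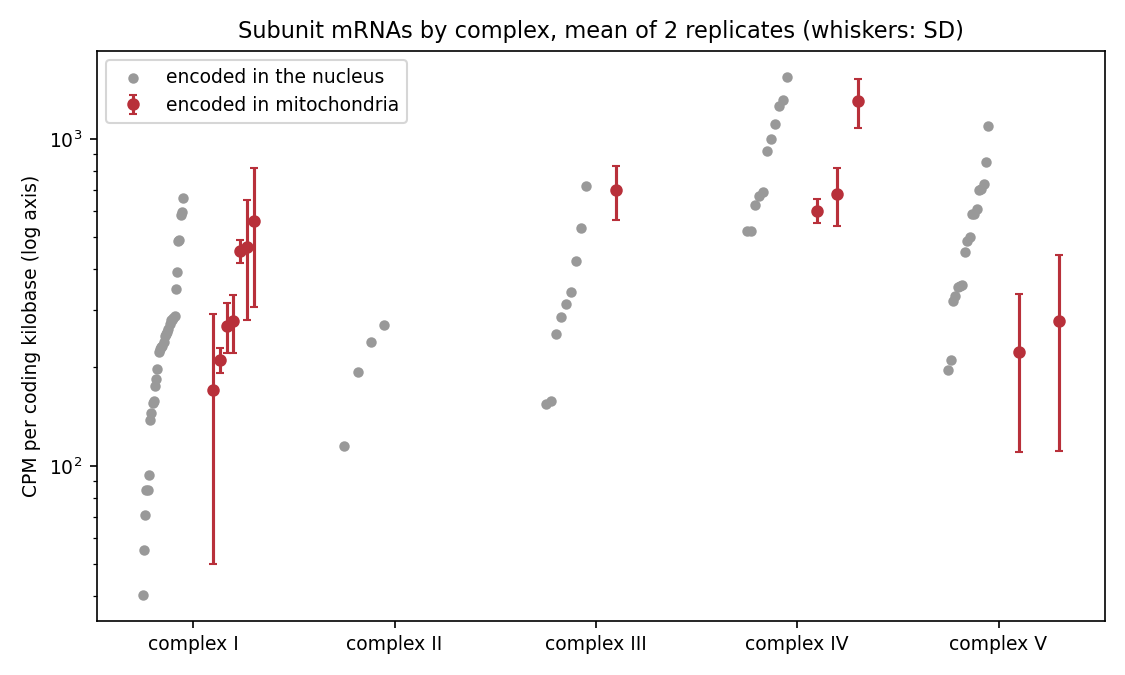
CPM per coding kilobase on a log axis, as the mean of the 2 replicates, for subunit mRNAs encoded in the nucleus (grey) and in mitochondria (red, with SD as whiskers), by respiratory complex. In the counts as deposited, the complex V genes mt-Atp6 and mt-Atp8 (222 and 277) lie low among the nuclear subunits of that complex. The value of mt-Atp6 leaves out a pseudogene of similar length and mt-Atp8 rests on 12 and 9 counts, so their places are uncertain. mt-Cytb (696) lies near the top of complex III.

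The balance of mRNA, tRNA and rRNA differed between the libraries more than the level of the mRNAs did. In replicate 1 the mRNAs were the largest class, with 60.4% of the 3151 mitochondrial counts (58.7 to 62.1). The rRNAs held 35.2% (33.5 to 36.9) and the tRNAs 4.41% (3.75 to 5.19). In replicate 2 the rRNAs held 80.6% of 5380 counts (79.6 to 81.7), the mRNAs 14.9% (13.98 to 15.9) and the tRNAs 4.46% (3.94 to 5.05). The intervals of the tRNA part overlapped between the libraries, while mRNA and rRNA changed places as the largest class. Pseudogenes of similar length, named below, were not added to the mRNAs.

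There were 1.72 mRNA counts for each rRNA count in replicate 1 and 0.185 in replicate 2, a 9.28-fold difference between the libraries (8.35 to 10.3). The ratio of mRNA to tRNA was 13.7 and 3.34, a 4.10-fold difference (3.27 to 5.13). The ratio of tRNA to rRNA was 0.125 and 0.0553, a 2.27-fold difference (1.82 to 2.82). In 2-sided Fisher's exact tests of these 3 ratios, with Benjamini-Hochberg adjustment, the adjusted p was 4.27e-36 for mRNA against tRNA and 2.10e-12 for tRNA against rRNA. For mRNA against rRNA its −log10 was 423. These tests compare the reads of the 2 libraries and say nothing of a condition.

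Per nucleotide, the rRNAs were the densest class in both libraries, at 0.437 counts per nucleotide in replicate 1 and 1.71 in replicate 2. That was 2.62 and 24.3 times the density of the mRNAs. The order of mRNA and tRNA turned between the libraries: 0.167 against 0.0926 counts per nucleotide in replicate 1 and 0.0703 against 0.160 in replicate 2. A fragment of 30 nucleotides has few places to lie within a tRNA. Counted per start position of such a fragment, the mRNAs and tRNAs stood at 0.173 and 0.161 in replicate 1 and at 0.0727 and 0.278 in replicate 2.

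**Figure D3:**
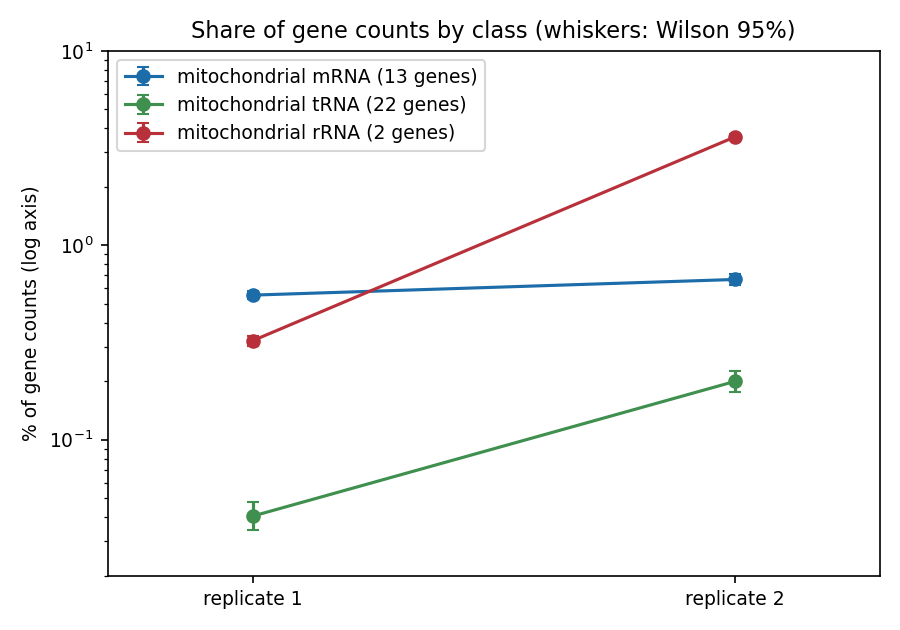
Share of all gene counts, in percent on a log axis, held by the mitochondrial mRNAs, tRNAs and rRNAs in each replicate, with Wilson 95% intervals as whiskers. The mRNA line is the least steep (0.554% and 0.667%), while the rRNAs stand at 0.323% and 3.61% and the tRNAs at 0.0405% and 0.1995%.

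The 2 rRNAs form the core of the small and the large subunit of the mitochondrial ribosome. mt-Rnr1, the small subunit rRNA at MT:70-1024, had 474 and 1577 counts, giving 0.496 (0.453 to 0.543) and 1.65 (1.57 to 1.73) per nucleotide. mt-Rnr2, the large subunit rRNA at MT:1094-2675, had 635 and 2761 counts, or 0.401 (0.371 to 0.434) and 1.75 (1.68 to 1.81) per nucleotide. The large rRNA had 0.809 times the density of the small one in replicate 1 and 1.06 times in replicate 2. In replicate 1 mt-Rnr2 was about as dense as mt-Co1, with a ratio of 0.951, and in replicate 2 it was 10.7 times as dense.

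In CPM, mt-Rnr2 was 14.3 times as high in replicate 2 (13.1 to 15.6) and mt-Rnr1 10.96 times (9.89 to 12.2), with separate intervals. The factor of the rRNAs together was 12.9 (12.1 to 13.8). This was above the factors of the 4 classes of short RNA encoded in the nucleus that are given above. Its interval did not reach theirs. The part that the general content of short RNA has in the mitochondrial rRNA and tRNA differences was not tested.

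The 22 tRNAs, which carry amino acids to the mitochondrial ribosome, summed to 139 counts in replicate 1 and 240 in replicate 2. Single tRNAs had from 0 to 41 counts in replicate 1, with a median of 3, and from 0 to 40 in replicate 2, with a median of 6.5. In all, 19 of the 22 had a count in replicate 1 and 21 in replicate 2. mt-Ty, for tyrosine, had 0 counts in both, which allows a share of gene counts of up to 0.000873% in replicate 1 and 0.00249% in replicate 2. Of the 22, 13 reached 10 counts over both libraries, and the other 9 lay below.

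mt-Tv and mt-Tp led the tRNAs in both libraries. mt-Tv, for valine, lies between the rRNA genes at MT:1025-1093 and had 41 and 40 counts, or 0.594 (0.426 to 0.806) and 0.580 (0.414 to 0.789) per nucleotide. In mammals a mitochondrial tRNA is built into the large ribosomal subunit in place of the 5S rRNA, valine tRNA in the human ribosome and phenylalanine tRNA in the porcine one. mt-Tf, for phenylalanine, had 6 and 13 counts. mt-Tp, for proline, is read from the strand that carries mt-Nd6 and had 26 and 29 counts, or 0.388 (0.253 to 0.569) and 0.433 (0.290 to 0.622) per nucleotide. mt-Tv and mt-Tp together held 48.2% of tRNA counts in replicate 1 and 28.8% in replicate 2.

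Other tRNAs stood higher in replicate 2 than the depths of the libraries would give. mt-Tm, for methionine, had 3 and 25 counts, a CPM ratio of 27.5 (exact interval 8.38 to 142). mt-Ti, for isoleucine, had 2 and 21 counts and a ratio of 34.6 (8.46 to 304). mt-Tg, for glycine, had 6 and 18 counts and a ratio of 9.89 (3.76 to 30.4). By contrast the ratio was 3.21 for mt-Tv (2.03 to 5.10) and 3.68 for mt-Tp (2.09 to 6.50), intervals that did not reach those of mt-Tm or mt-Ti. Isoleucine and methionine tRNA flank the mt-Tq gene, with 0 and 4 counts, in a single cluster between mt-Nd1 and mt-Nd2.

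The remaining tRNAs with at least 10 counts had CPM ratios between 3.30 (mt-Ts2) and 14.3 (mt-Tl2). mt-Ta (alanine) had 10 and 15 counts, mt-Tn (asparagine) 9 and 14, mt-Tl1 and mt-Tl2 (both leucine) 4 and 9 and 3 and 13. mt-Ts2 (serine) had 6 and 6 counts, mt-Th (histidine) 5 and 6, and mt-Td (aspartate) 4 and 6. In CPM, 21 of the 22 tRNAs were higher in replicate 2, mt-Ty being the exception, but the interval of 7 of these ratios included 1. With library totals the ratio of mt-Tw, on 3 and 1 counts, was 0.952.

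By strand, the 14 tRNAs of the main coding strand had 89 and 170 counts, or 0.0935 and 0.179 per nucleotide. The 8 of the strand with mt-Nd6 had 50 and 70 counts, or 0.0911 and 0.128 per nucleotide. Their CPM ratios between the libraries, 6.29 (4.84 to 8.23) and 4.61 (3.16 to 6.77), had overlapping intervals. Over all 22 the ratio was 5.69 (4.60 to 7.06), below that of the rRNAs and above that of the mRNAs, 1.39 (1.28 to 1.51). Whether the counting kept strand is not stated in the sources used here.

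**Figure D4:**
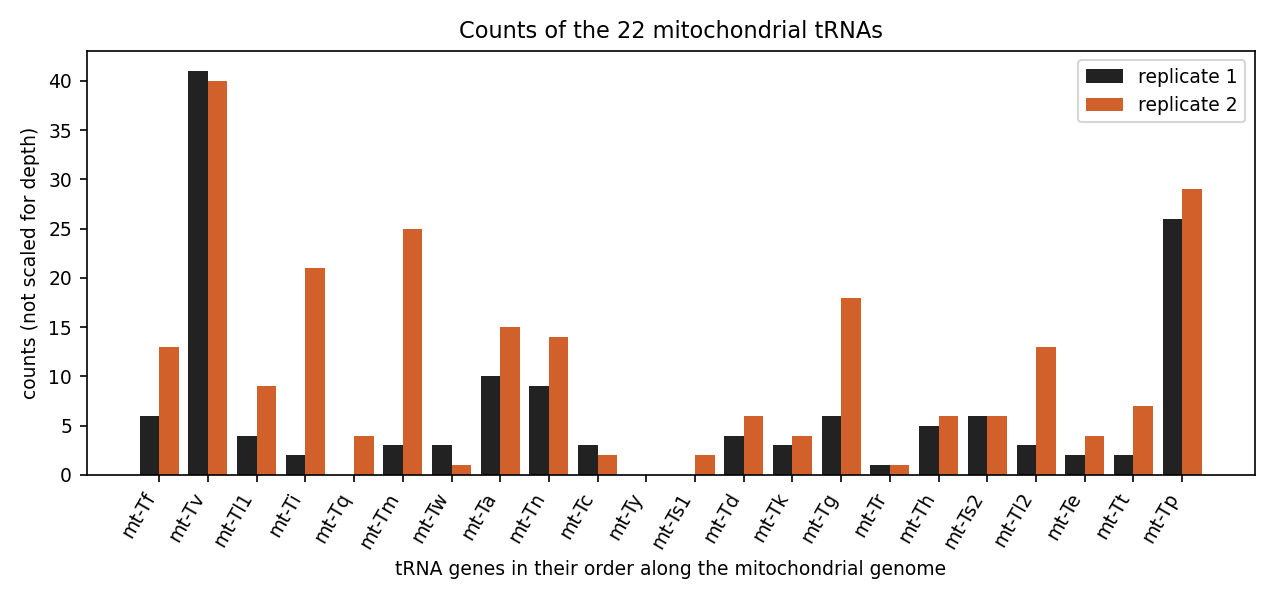
Counts of each of the 22 mitochondrial tRNAs in replicate 1 (black) and replicate 2 (orange), in gene order along the mitochondrial genome and not scaled for depth. mt-Tv (41 and 40) and mt-Tp (26 and 29) are similar in both, while mt-Ti (2 and 21) and mt-Tm (3 and 25) are tall in replicate 2 alone.

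A 2-sided exact binomial test with Benjamini-Hochberg adjustment compared each gene between the libraries, over the 5436 genes whose mean count reached 10. It tests the reads of these libraries, and its p-values leave out any spread between animals. At an adjusted p under 0.05 it called 4.14% of all genes, 3.99% higher and 0.147% lower in replicate 2, and 0.956% of protein-coding genes. Of the members 22 were tested: 13 mRNAs, 2 rRNAs and 7 tRNAs. The 15 tRNAs below the filter were not, and because a tRNA could pass it through its count in replicate 2 alone, the calls of tRNAs are not counted as support.

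Among the mRNAs, 3 of 13 were called, all higher in replicate 2. mt-Nd5 stood at 610 and 1089 CPM, and its log2 ratio was 0.84 (counting SE 0.16), with an adjusted exact binomial p of 2.80e-05. mt-Nd6 stood at 198 and 384 CPM, with a ratio of 0.95 (SE 0.28) and an adjusted exact binomial p of 0.0241. mt-Co1 stood at 1767 and 2259 CPM, with a ratio of 0.35 (SE 0.11) and an adjusted exact binomial p of 0.0286. mt-Nd5 and mt-Nd6 are neighbours on opposite strands whose genes share 14 nucleotides. With the libraries scaled by their totals, mt-Nd5 alone among the mRNAs was called higher, against 3.24% of all genes. A negative binomial test in edgeR that allows for a spread between animals (a coefficient of variation of 0.2) called 0 of the 13, with 0 at an unadjusted p under 0.05. It called 2.39% of all genes higher.

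The log2 ratios of the 13 mRNAs lay between 0.16 and 1.55 with a median of 0.41, against a median of 0.0041 for all genes tested, of which 22.3% had a higher ratio than that median. mt-Nd3, mt-Atp8 and mt-Atp6 had the highest ratios of the 13, at 1.55, 1.28 and 1.07, on 21, 21 and 59 counts in sum. They did not pass the adjusted threshold (adjusted exact binomial p of 0.264, 0.594 and 0.155). mt-Nd1, mt-Co2 and mt-Nd4l, at 0.18, 0.17 and 0.16, lay slightly below 0 with library totals. That scaling moves the median of all genes by -0.20 and shifts the mRNAs with it. The mRNA median lay 0.41 above the median of all genes, and 0.27 above it where the filter was at least 1 count in each replicate.

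**Figure D5:**
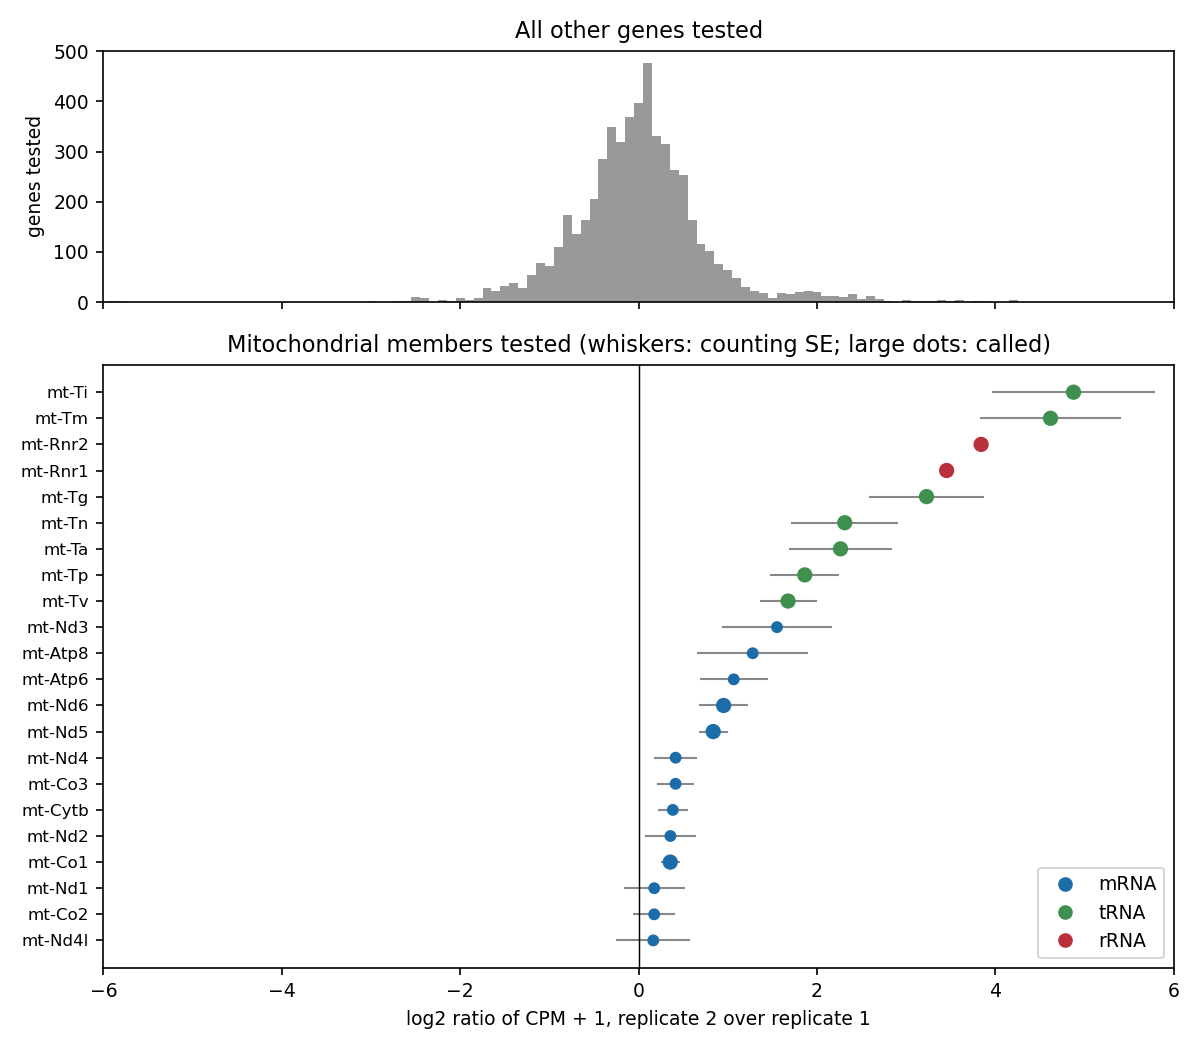
Log2 ratio of CPM + 1, replicate 2 over replicate 1, for all other genes tested (top, histogram of genes) and for the 22 members tested (bottom, with counting SE as whiskers and large dots for those called). The mRNAs lie between 0.16 and 1.55, and the rRNAs at 3.45 and 3.84.

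Of the nuclear genes that build or run this system, those tested were not called, beside 0.956% of protein-coding genes called, so a count of 0 is near the background. Of the 78 nuclear-encoded subunits, all of them tested, the exact binomial test called 0 after adjustment, with 2 at an unadjusted p under 0.05, and edgeR's negative binomial test called 0. Their median log2 ratio was -0.083. Of 48 factors that copy, transcribe, process or translate the mitochondrial genome, 7 had enough counts to be tested and 41 did not. Both tests called 0 of these, with 0 at an unadjusted p under 0.05 in the exact binomial test, and their median log2 ratio was -0.57. Those with the highest CPM were Lrpprc, which stabilises mitochondrial mRNAs, with 49 and 10 counts, and Tufm, the mitochondrial elongation factor that delivers tRNAs, with 40 and 7. Cox14, which is needed for the assembly of the oxidase and was listed with the translation factors, had 32 and 9. The RNA polymerase Polrmt had 8 and 5 counts and the packaging factor Tfam 9 and 4.

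Some mitochondrial mRNAs may share fragments with pseudogenes that resemble them, which was not tested because no sequences were compared. Among the other genes, 5 classed as unprocessed pseudogenes had lengths within 3 nucleotides of a mitochondrial mRNA and similar counts, and were picked out after their values were seen. A match by length to the mRNAs cannot find copies of another length or of tRNAs, so other members may share fragments as well. Gm10925, on chromosome 1 and listed by RefSeq with mt-Atp6 as a synonym, had 34 and 21 counts beside the 36 and 23 of mt-Atp6. Gm10222, also on chromosome 1, had 51 and 14 beside the 47 and 16 of mt-Nd4l. Gm28661 had 128 and 52 beside the 143 and 49 of mt-Co2, Gm28437 had 161 and 69 beside the 168 and 68 of mt-Co3, and Gm28438 had 8 and 10 beside the 11 and 10 of mt-Nd3. These 5 mRNAs lie in the stretch of the mitochondrial genome from mt-Co2 to mt-Nd4l, which also holds mt-Atp8. Counts alone cannot assign shared fragments to one source, so the levels of these genes are uncertain. The orders and ratios of mRNAs and complexes that rest on these genes are uncertain too.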

How the data were processed

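The members and gene lists were chosen with earlier results of these data known. The authors deposited a whole-number count of protected fragments, without normalisation, for 109463 mouse transcripts in each replicate. The submitters' processing notes name Trimmomatic 0.36, Bowtie2 2.2.6, SAMtools and build GRCm38.p4; the counting tool, annotation release and any rRNA filter are not given in the sources used here. Table totals were 729027 and 225075 counts. Isoforms carry nearly equal counts, so the transcript with the highest summed count (the longer in a tie) stood for its gene; each mitochondrial gene has 1 transcript.

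Coordinates come from RefSeq on GRCm38.p6, whose lengths equal those of the table for 37 of 37 members. The deposited table gives no sequences and none is printed.

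Library sizes were scaled by TMM (edgeR 4.0.16; factors 1.07 and 0.931). Log2 ratios use log2(CPM + 1), which understates changes of low genes. Genes whose mean count reached 10 were tested by a 2-sided exact binomial test with Benjamini-Hochberg adjustment at 0.05 (scipy 1.17.1). Its check on simulated counts held counting error alone and so does not cover spread between animals. Class ratios were compared with Fisher's exact test. Shares carry Wilson and densities exact Poisson 95% intervals. A count of 0 allows up to 3 counts. With 1 group, no condition is compared and p-values measure the reads of 2 libraries. Named genes were all members with 10 or more counts, the densest nuclear subunit of each complex, the 3 most abundant expression factors and every gene called; other genes were named after their values were seen. The alternatives were scaling by totals, DESeq2 1.42.0 size factors or nuclear coding genes, other filters and pseudocounts, summed isoforms, thinning, and a preset coefficient of variation of 0.2.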

Additional observations from a re-analysis of the deposited data

How the results depend on the processing

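No paired analysis was possible because both libraries belong to the same group. The 12 of 22 members called, 7 of them tRNAs that are not counted as support, stood beside 4.14% of all genes. They became 4 of 10 where the mean count had to reach 50 (9.82% of all genes; no tRNA was left to test) and 5 of 22 under the negative binomial test with a coefficient of variation of 0.2 (2.41%). The 3 of 13 mRNAs called became 1 with library totals (3.66% of all genes), 1 with at least 1 count in each replicate (1.75%) and 0 under the negative binomial test (2.41%). Of 181 values of single members under alternatives, 163 kept direction and side of the threshold, 12 lost the threshold and 6 changed sign. The last were mt-Nd1 (-0.0301 with library totals, -0.0077 with at least 1 count in each replicate), mt-Co2 (-0.0310 and -0.0085) and mt-Nd4l (-0.0402 and -0.018), none of them called. Where no cause is given, the cause was not tested.

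Shares of counts moved with the denominator by construction. Over summed isoforms they were 0.261% and 0.356% for mRNA, 0.0191% and 0.107% for tRNA and 0.152% and 1.93% for rRNA (replicates 1 and 2). Over protein-coding counts they were 0.681% and 0.912%, 0.0497% and 0.273%, and 0.397% and 4.93%. Per nucleotide, the ratio of mRNA to rRNA was 0.382 and 0.0411, of mRNA to tRNA 1.80 and 0.440, and of tRNA to rRNA 0.212 and 0.0935. Per start position of a 30-nucleotide fragment, added after seeing the data, these were 0.386 and 0.0416, 1.07 and 0.262, and 0.36004 and 0.159. Complex V has no mRNA left without the overlapping pairs. Leaving out a replicate gave 271 to 420 CPM per coding kilobase for complex I, 604 to 788 for III, 866 to 1097 for IV, 147 to 323 for V and 452 to 628 for all 13 mRNAs; a test between replicates has no such form. Without replicate 2, complex V fell from 235 to 147. At this depth the order of most neighbouring mRNAs was not resolved, and 9 tRNAs had under 10 counts over both libraries.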
